A study of Mus musculus with 2 samples.

Results

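The FGF receptors Fgfr1, Fgfr2 and Fgfr3 and 6 feedback targets of FGF signalling, Etv4, Etv5, Spry1, Spry2, Spry4 and Dusp6, were followed through single epithelial and immune cells of regenerating mouse mammary transplants. These 9 genes were picked by name from the 27998 genes of the table and described over all 354 cells, by the keratins of the cell, by the immune gene Ptprc, by library and by their co-expression within cells.

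Both libraries came from transplants made of basal cells mixed with luminal cells into fat pads, cleared of their own epithelium, of female nude mice aged 3 weeks, and were dissected 5 days after surgery. The basal cells of both groups carried the R26R mT/mG reporter, which switches from red (Tdtomato) to green (GFP) on Cre recombination, and both were exposed to an adenovirus carrying Cre and GFP. In the control group (Ctrl, genotype WT) these basal cells were Fgfr2 wild type, and in the experimental group (Fgfr2 KO) they carried Fgfr2 fl/fl, which Cre deletes. The luminal cells were wild type and red, so not recombined, in both groups. Only the green basal cells of the experimental group were thus designed to lack Fgfr2. Nude hosts lack a thymus and with it most T cells, and Cd3e had 0 UMIs in every cell class. Each group was 1 library, and how many recipients were pooled in it was not stated. Differences between groups therefore have no replicate check, no test was run, and every interval below is a 95% interval of counting error only, over cells that are not replicates of a condition.

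FGF ligands bind receptor tyrosine kinases encoded by Fgfr1 to Fgfr4, which signal through the adaptor Frs2 to the ERK kinases. ERK activity raises the ETS-family transcription factors Etv4 and Etv5, and with them the inhibitors of the same route: the Sprouty proteins, which act between receptor and ERK, and Dusp6, a phosphatase that inactivates ERK. These genes are therefore used as a readout of FGF signalling, although other receptor tyrosine kinases that act through ERK raise them too. In the mammary gland Fgfr2 is known for its need in branching and in end buds, whose stroma supplies FGF ligands.

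A cell with at least 1 unique molecular identifier (UMI, a counted transcript molecule) of Ptprc, the gene of the leukocyte antigen CD45, was taken as Ptprc-positive. Of the rest, a cell was basal-keratin where Krt14 plus Krt5 UMIs exceeded Krt8 plus Krt18 UMIs, and luminal-keratin in the reverse case. This gave 68 basal-keratin, 117 luminal-keratin and 73 Ptprc-positive cells in the Ctrl library and 22, 31 and 23 in the Fgfr2 KO library, with 10 cells of no class in each. Median UMIs per cell were 16301 in Ctrl and 10485 in Fgfr2 KO. In Ctrl, 11 basal markers summed to 8884 counts per 1000000 UMIs (CPM) in basal-keratin and 1545 CPM in luminal-keratin cells, and 10 luminal markers to 2376 and 9004 CPM, so the classes held the markers of their names with part of the other set in each. Cells with under 10 keratin UMIs made up 5 of the 68 and 19 of the 117 in Ctrl, and the fibroblast list stood at 26620 and 18600 CPM in them. In Fgfr2 KO they made up 5 of the 22 and 11 of the 31, with the fibroblast list at 109.8 and 3737 CPM. The immune list in such basal-keratin and luminal-keratin cells stood at 946.3 and 10260 CPM in Ctrl and at 2636 and 10220 CPM in Fgfr2 KO.

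Dusp6 and Spry2 were the best counted of the targets that differed between the keratin classes of Ctrl, and Spry1, another Sprouty, had the opposite order to both between hormone-sensing and progenitor marker cells of Ctrl, compared further on. The 250 bases before their annotated starts are shown for what they hold of GGAA, the core that ETS factors such as Etv4 and Etv5 bind. Sequences are from RefSeq on GRCm38.p6, written 5′ to 3′ along the gene, with GGAA on either strand (GGAA or TTCC) in capitals. Dusp6 lies on the forward strand of chromosome 10 and its window is chr10:99262981-99263230. The window of Spry2, on the reverse strand, is chr14:105896820-105897069, and that of Spry1, on the forward strand, is chr3:37639697-37639946.
Dusp6: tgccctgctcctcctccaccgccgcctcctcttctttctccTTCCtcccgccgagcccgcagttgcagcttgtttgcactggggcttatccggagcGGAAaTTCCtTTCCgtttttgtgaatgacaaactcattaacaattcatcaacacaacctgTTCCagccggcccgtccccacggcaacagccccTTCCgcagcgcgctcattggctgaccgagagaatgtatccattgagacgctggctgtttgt
Spry2: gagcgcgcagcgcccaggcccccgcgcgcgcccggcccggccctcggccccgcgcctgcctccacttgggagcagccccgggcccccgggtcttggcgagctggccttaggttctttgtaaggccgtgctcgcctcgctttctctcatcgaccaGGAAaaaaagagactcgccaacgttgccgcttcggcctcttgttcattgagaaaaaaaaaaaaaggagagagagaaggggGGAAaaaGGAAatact
Spry1: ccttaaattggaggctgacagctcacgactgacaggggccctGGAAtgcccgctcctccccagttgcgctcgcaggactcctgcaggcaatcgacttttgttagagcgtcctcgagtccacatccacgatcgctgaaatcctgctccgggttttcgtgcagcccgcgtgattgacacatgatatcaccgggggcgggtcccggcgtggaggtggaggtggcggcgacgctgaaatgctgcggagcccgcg

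The Dusp6 window held 6 matches, Spry2 held 3 and Spry1 held 1, counting both strands. Of 32851 promoters cut to the same 250 bases, 93.4% held at least 1 match with a median of 3, and 8.69% held as many as Dusp6. The longer CCGGAA stood in 12.0% of promoters and in none of these windows. A match of 4 letters is a description and no measured site. Of the 9 genes, 6 matched the promoter table, and Fgfr1, Etv4 and Spry4 did not.

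Fgfr1, a receptor of both the epithelium and its stroma, was counted in both keratin classes at like levels. In Ctrl it had 0 to 10 UMIs per basal-keratin cell with a median of 1, and 0 to 14 per luminal-keratin cell with a median of 2. Its class level was 94.96 CPM (78.9 to 113, 123 UMIs) in basal-keratin and 114 CPM (101.5 to 127, 320 UMIs) in luminal-keratin cells, with a UMI in 53 of 68 and 89 of 117 cells. The difference, a log2 ratio of basal over luminal of -0.26 (-0.57 to 0.05), lay within its counting interval. In Fgfr2 KO the classes were at 125 and 110 CPM, a log2 ratio of 0.18 (-0.42 to 0.77).

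Fgfr2, the gene deleted in the experimental basal cells, did not separate the keratin classes of Ctrl either. In Ctrl its UMIs ran from 0 to 4 per basal-keratin cell and from 0 to 8 per luminal-keratin cell, with a median of 0 in both. Its level was 32.4 CPM (23.4 to 43.8, 42 UMIs in 26 of 68 cells) in basal-keratin and 40.1 CPM (33.1 to 48.2, 113 UMIs in 48 of 117 cells) in luminal-keratin cells. The log2 ratio of -0.31 (-0.85 to 0.22) again lay within its counting interval. In Fgfr2 KO the 22 basal-keratin cells held 7 UMIs in 6 cells, 21.9 CPM (8.81 to 45.2), and the 31 luminal-keratin cells 27 UMIs in 13 cells, 43.8 CPM (28.8 to 63.7). Their log2 ratio of -0.998 (-2.44 to 0.24) lay just short of 2-fold and passed it in 9 of 10 alternatives. Whether a 3′ or a 5′ kit was used, and where in the transcript the deleted exons lie relative to the counted end, was not stated, so these UMIs do not check the deletion.

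Fgfr3 was sparse. It had 4 UMIs in basal-keratin and 17 in luminal-keratin cells of Ctrl, 3.09 and 6.03 CPM, a ratio with an interval from -3.00 to 0.65 on the log2 scale. In Fgfr2 KO it had 3 and 1 UMIs. Both Fgfr1 and Fgfr2 were seen in 20 of 68 basal-keratin and 40 of 117 luminal-keratin cells of Ctrl, and neither in 9 and 20, counts that move with the depth of a cell.

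**Figure D1:**
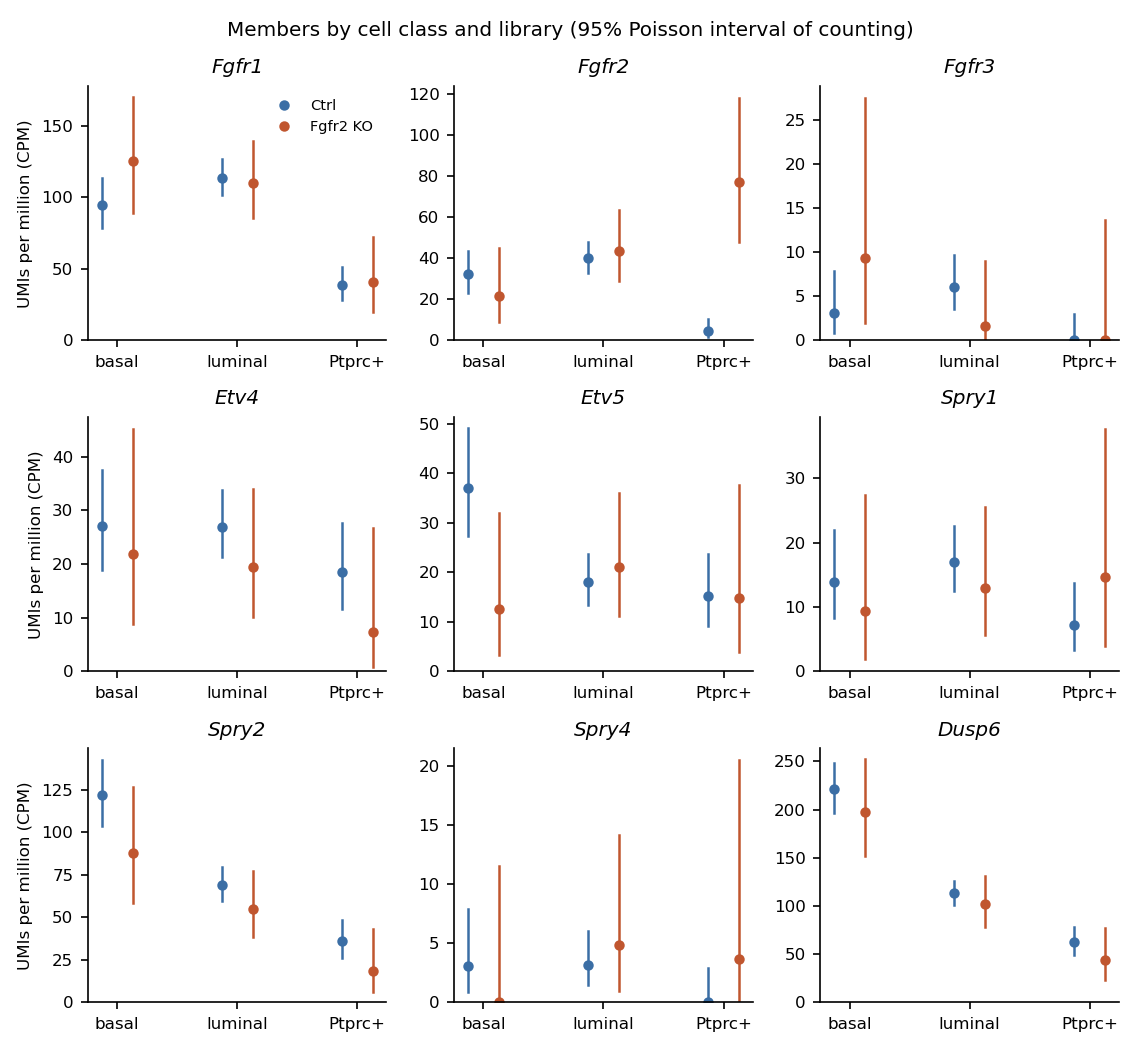
Level of each of the 9 genes in CPM (vertical axis, own scale per panel) in basal-keratin, luminal-keratin and Ptprc-positive (Ptprc+) cells of the Ctrl (blue) and Fgfr2 KO (orange) library; bars are 95% Poisson intervals of counting. Dusp6 steps down from basal to luminal to Ptprc-positive cells in both libraries, as Spry2 does before thinning, and the high Fgfr2 point in Ptprc-positive Fgfr2 KO cells comes from 1 cell.

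Among the targets, Dusp6 was the most clearly basal. Ctrl basal-keratin cells had 0 to 16 Dusp6 UMIs with a median of 3, and luminal-keratin cells 0 to 20 with a median of 1. The levels were 222 CPM (197 to 248.7, 287 UMIs in 60 of 68 cells) and 113 CPM (101.1 to 126, 319 UMIs in 75 of 117 cells), a log2 ratio of 0.97 (0.734 to 1.203). The Fgfr2 KO library gave the same order, at 197 and 102 CPM and 0.95 (0.42 to 1.48). Single cells of the classes overlapped in both libraries, since both held cells with 0. With every cell thinned to 5000 UMIs, 68.2% of basal-keratin and 36.3% of luminal-keratin cells of Ctrl had a Dusp6 UMI, and 52.6% and 33.3% did in Fgfr2 KO.

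Spry2, a Sprouty inhibitor, followed the same order in Ctrl. Its UMIs ran from 0 to 14 per basal-keratin cell with a median of 1, and from 0 to 16 per luminal-keratin cell with a median of 0. In Ctrl it stood at 122 CPM (104 to 143, 158 UMIs) and 69.2 CPM (59.8 to 79.6, 195 UMIs), a log2 ratio of 0.82 (0.51 to 1.13). In Fgfr2 KO the levels were 87.7 and 55.1 CPM, and the log2 ratio of 0.67 had an interval that reached -0.11. That order turned to -1.30 (-3.36 to 0.37) when cells were thinned to 5000 UMIs, which left 4 and 14 UMIs.

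Etv5, one of the ETS factors, passed the 2-fold line in Ctrl. It had 48 UMIs in 17 basal-keratin cells, 37.1 CPM (27.3 to 49.1), against 51 UMIs in 33 luminal-keratin cells, 18.1 CPM (13.5 to 23.8), a log2 ratio of 1.03 (0.43 to 1.63). Few cells carried that level, since 1 basal-keratin cell gave 12 UMIs and 3 cells gave 45.8% of the class. The share of cells with a UMI in luminal-keratin cells was 28.2%, and the 17 basal-keratin cells were 17 of 68.

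The other targets showed no such order. Etv4, the sister factor of Etv5, stood at 27.0 CPM in both classes of Ctrl, with a log2 ratio of 0.00 from 35 and 76 UMIs. Spry1 was at 13.9 CPM in basal-keratin and 17.0 CPM in luminal-keratin cells, -0.29 (-1.16 to 0.51). Spry4 had 4 and 9 UMIs, too few to order. Summed over the 6 targets, Ctrl basal-keratin cells held 425 CPM (390 to 462) and luminal-keratin cells 248 CPM (230 to 267), a log2 ratio of 0.78 (0.61 to 0.94), and Fgfr2 KO gave 0.61 (0.23 to 0.99). Thinned, the sum in Fgfr2 KO came to 22 and 34 UMIs and -0.12 (-0.965 to 0.695), an interval that still held the full-depth value. Dusp6 and Spry2 made up most of these UMIs.

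A gene was called different between 2 sets of cells where its CPM differed at least 2-fold and it had at least 20 UMIs over both. Of the 8 of these genes with enough UMIs between the keratin classes of Ctrl, 1 was called higher in basal-keratin cells (Etv5) and 0 lower, against 5.07% of all tested genes called higher and 9.64% lower. Dusp6 lay just under the line and passed it in 5 of 10 alternatives, up to 1.29 without mixed-keratin cells, and Etv5 passed it in 8 of 10. In Fgfr2 KO, 4 had enough UMIs and 0 were called, against 7.23% and 14.2%, a count that would gain Fgfr2 as lower in 9 of 10 alternatives and Dusp6 as higher in 2 of 10. Their median log2 ratio was -0.13 in Ctrl beside -0.12 over all genes, and 0.43 beside -0.16 in Fgfr2 KO. As a list these genes did not stand out from the background. The intervals that lay above 0 were those of Dusp6 in both libraries and of Spry2 and Etv5 in Ctrl.

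**Figure D2:**
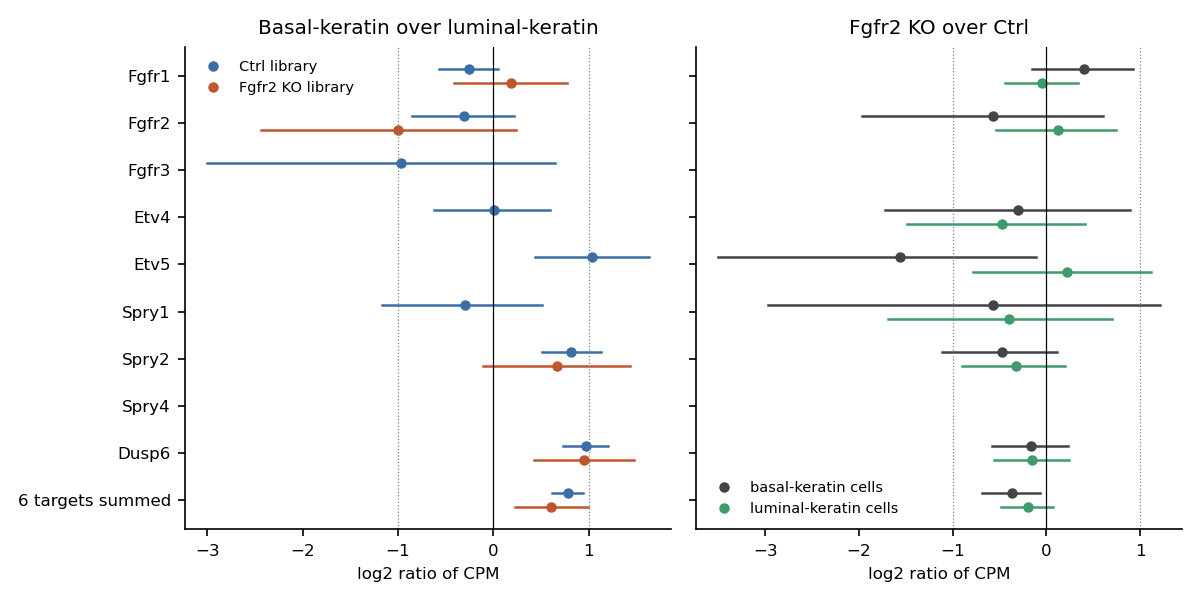
Log2 ratio of CPM (horizontal axis) for each gene and the 6 targets summed, left for basal-keratin over luminal-keratin cells in each library, right for Fgfr2 KO over Ctrl in each class; bars are 95% counting intervals, dotted lines mark 2-fold, and genes under 20 UMIs are not drawn. The intervals of Dusp6 on the left lie above 0 in both libraries, and on the right only those of Etv5 and the sum in basal-keratin cells lie below 0.

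The keratin classes hid a larger difference in Fgfr2, which appeared when cells were ordered by the share of basal keratins among the UMIs of the 4 keratins. In Ctrl, Fgfr2 was at 66.6 CPM (53.7 to 81.6, in 33 of 65 cells) where that share was below 10%, at 14.1 CPM (8.60 to 21.7, in 15 of 52 cells) at 10 to 50%, at 30.6 CPM (21.3 to 42.6) at 50 to 90% and at 45.8 CPM (18.4 to 94.4, from 7 UMIs) at 90% and above. The lowest level was thus in luminal-keratin cells that also held basal keratins, and the highest in luminal-keratin cells with hardly any. The log2 ratio between these luminal bins was 2.24 (1.53 to 3.02). It was 1.36 as a ratio of the mean of the cells' own CPM, and 0.77 (-0.635 to 2.32) from 14 and 7 UMIs after thinning. Fgfr2 KO gave 56.5, 6.38, 21.9 and 21.9 CPM, the middle values resting on 1 and 4 UMIs, and a ratio of 3.15 (0.54 to 8.50). Without the cell highest in Fgfr2 on each side, 20 and 0 UMIs were left. With the 0 set to a floor of 3 counts that ratio was 0.14, and its interval began at -0.29.

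Fgfr3 had 14 of its 17 luminal-keratin UMIs of Ctrl in the bin below 10%, too few in all for a call. Spry1 shared the direction, with a log2 ratio between the luminal bins of 1.16 (0.24 to 2.15), and Etv5 had the opposite one, -0.98 (-1.91 to -0.10). Thinning left Etv5 with 7 and 4 UMIs and turned its ratio to 0.58 (-1.40 to 2.80). Of the 7 genes with enough UMIs, 2 were called higher in Ctrl (Fgfr2 and Spry1), against 6.07% of all tested genes, and 0 lower, against 7.46%. In Fgfr2 KO 1 of 4 was called higher (Fgfr2), against 17.1%, and 0 lower, against 14.1%.

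Dusp6 followed the basal keratins in another way, at 103, 123, 222 and 216 CPM over the 4 bins of Ctrl, with the step at the point where basal keratins took the majority. Spry2 stood at 78.7, 59.8, 118 and 151 CPM. In Fgfr2 KO Dusp6 gave 106.5, 89.3, 258 and 117 CPM, so there the last bin, of 12 cells, did not keep the level of the one before.

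**Figure D3:**
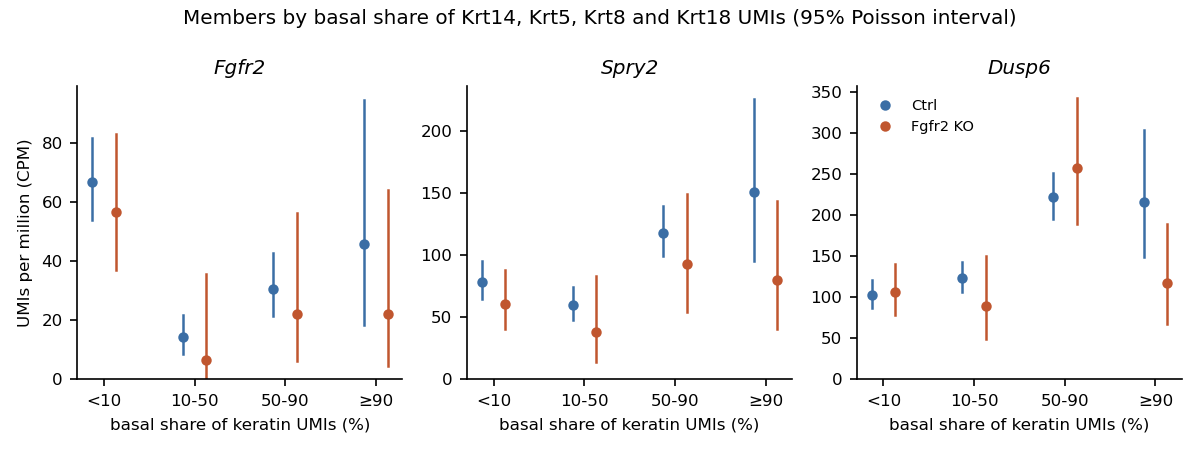
Fgfr2, Spry2 and Dusp6 in CPM (vertical axes) by the basal share of Krt14, Krt5, Krt8 and Krt18 UMIs in percent (horizontal axes), for the Ctrl (blue) and Fgfr2 KO (orange) library with 95% Poisson intervals. Fgfr2 is highest below 10% and lowest at 10 to 50% in both libraries, while Dusp6 is higher at 50 to 90% than in either bin to the left.

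Luminal mammary cells comprise hormone-sensing cells, which carry oestrogen, progesterone and prolactin receptors, and secretory progenitors, marked by Kit and Elf5 among others. Luminal-keratin cells with more detected hormone-sensing than progenitor markers, out of 8 for each, were compared with those of the reverse kind. This gave 50 against 51 cells in Ctrl and 13 against 13 in Fgfr2 KO, with 16 and 5 ties left out. Of these, 2 against 10 cells in Ctrl and 2 against 6 in Fgfr2 KO had under 10 keratin UMIs. Median depth was 20161.5 against 18868 UMIs in Ctrl and 22271 against 13812 in Fgfr2 KO. The progenitor list is not particular to luminal cells in these data. It summed to 1120 CPM in basal-keratin and 1352 CPM in luminal-keratin cells of Ctrl and to 1575 and 902.7 CPM in Fgfr2 KO. Of its genes, Lcn2 was higher in basal-keratin cells of Ctrl (793 against 475 CPM) and Cd14 in Ptprc-positive cells (516 against 141 CPM in luminal-keratin cells). Fgfr2 and Fgfr3 lay on one side of this split in Ctrl, and Dusp6, Spry2 and Etv5 on the other.

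Fgfr2 was on the hormone-sensing side. In Ctrl it had 0 to 8 UMIs per hormone-sensing marker cell with a median of 1, and 0 to 6 with a median of 0 in progenitor marker cells. Its level was 73.1 CPM (58.4 to 90.4, in 30 of 50 cells) against 19.6 CPM (12.7 to 29.0, in 15 of 51 cells), a log2 ratio of 1.90 (1.24 to 2.60) or 3.73-fold. In Fgfr2 KO it was at 86.0 against 16.4 CPM, a log2 ratio of 2.39 (0.82 to 4.39) from 21 and 4 UMIs, with 71.4% of the former in 3 cells, and thinning left 3 and 2 UMIs and 0.46 (-2.67 to 4.04). Leaving out cells with a basal keratin share of 10% or more, a choice made after seeing the data, lowered the Ctrl log2 ratio to 1.16 (0.21 to 2.28), and thinning to 5000 UMIs left 14 against 6 UMIs and 1.22 (-0.25 to 2.89). The 2 kinds of cells also differed in basal keratin, with median shares of 2.19% and 17.1% in Ctrl, but not in that direction in Fgfr2 KO (2.06% and 0%).

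Fgfr3 again went with Fgfr2, with 15 UMIs in 12 hormone-sensing marker cells and 1 UMI in 1 progenitor marker cell of Ctrl, a ratio below the 20 UMIs a call needs. Fgfr1 did not share it in Ctrl, at 118 and 105 CPM and 0.16 (-0.19 to 0.52). In Fgfr2 KO Fgfr1 was at 143 against 73.9 CPM, from 35 and 18 UMIs, and thinning left 8 UMIs on each side.

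Dusp6, Spry2 and Etv5 were higher on the progenitor side of Ctrl. Dusp6 stood at 62.0 CPM in hormone-sensing and 181 CPM in progenitor marker cells, with highest single-cell counts of 6 and 20 UMIs and a log2 ratio of -1.54 (-1.95 to -1.16). Spry2 was at 41.3 and 84.8 CPM, -1.04 (-1.56 to -0.53), a ratio that stayed under 2-fold in 4 of 11 alternatives and was at its weakest -0.74 with no filter on Ptprc. Etv5 was at 10.3 and 24.3 CPM, -1.24 (-2.33 to -0.24), an order that thinning to 5 and 4 UMIs turned to 0.32. Spry1 alone of the targets had the direction of Fgfr2, at 27.5 CPM in 18 of 50 cells and 11.0 CPM in 8 of 51 cells, 1.33 (0.38 to 2.35), while Etv4 was at 29.3 and 26.7 CPM, 0.13 (-0.60 to 0.86). The sum of the 6 targets was 174 against 331 CPM, -0.93 (-1.18 to -0.69). Without cells of a basal keratin share of 10% or more, the choice made after seeing the data, these ratios were larger. Dusp6 became -2.07, Spry2 -1.86, the sum -1.40 and Spry1 3.11, the last from 32 and 1 UMIs.

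The Fgfr2 KO library held this order less firmly. Spry1 had 2 UMIs in hormone-sensing and 6 in progenitor marker cells there, the other direction to Ctrl and too few for a call. Dusp6 was at 90.1 against 152 CPM, -0.75 (-1.59 to 0.05), the sum at 213 against 283 CPM, and Spry2 at 73.7 against 57.5 CPM, 0.36 (-0.73 to 1.48), the reverse of Ctrl within its interval. Thinning took Dusp6 to 8 and 5 UMIs and 0.55 (-1.24 to 2.51) and the sum to 1.10 (-0.091 to 2.41), the other direction. Of the 7 genes with enough UMIs in Ctrl, 2 were called higher in hormone-sensing marker cells (Fgfr2 and Spry1) against 8.4% of all genes tested, and 3 lower (Etv5, Spry2 and Dusp6) against 8.76%. In Fgfr2 KO 1 of 4 was called higher (Fgfr2), against 10.3%, and 0 lower, against 7.7%. Immune markers summed to 574.8 CPM in hormone-sensing and 1390 CPM in progenitor marker cells of Ctrl and to 188.4 and 2965 CPM in Fgfr2 KO. Keratin-class cells over 0.5% immune-list UMIs were left out in 1 setting added after seeing the data. All 94 ratios of this report recomputed that way stayed within their counting intervals. The part of immune markers in these values was not tested further.

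Set against the progenitor marker cells alone, basal-keratin cells of Ctrl were closer in target levels. The log2 ratio of Dusp6 was 0.30 (0.04 to 0.55), of Spry2 0.53 (0.16 to 0.89) and of the sum 0.36 (0.17 to 0.54). None of the 7 genes with enough UMIs was called, against 5.36% of all genes tested higher and 5.52% lower, and in Fgfr2 KO none of 3, against 11.3% and 9.6%.

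**Figure D4:**
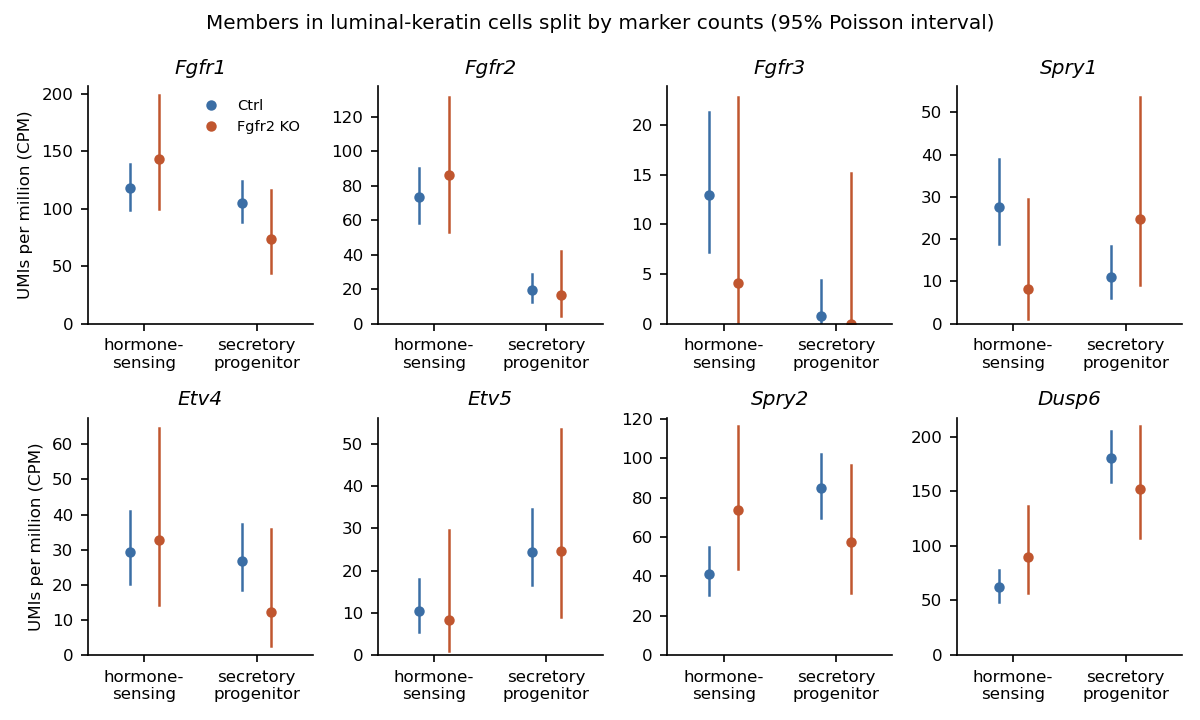
Level in CPM (vertical axes, own scale per panel) in luminal-keratin cells with more hormone-sensing or more secretory progenitor markers, for Ctrl (blue) and Fgfr2 KO (orange) with 95% Poisson intervals. Fgfr2 is higher in hormone-sensing marker cells of both libraries, and Dusp6 in progenitor marker cells of Ctrl, with intervals that overlap in Fgfr2 KO.

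Ptprc-positive cells, mostly leukocytes by their markers and of untested host or donor origin, gave a level to set beside those of the epithelium. Free RNA in droplets adds UMIs to every cell. In Ctrl, Fgfr2 was at 4.81 CPM (1.77 to 10.5, 6 UMIs in 5 of 73 cells), and both keratin classes together lay above it by a log2 ratio of 2.97 (1.82 to 4.44). Fgfr3 had 0 UMIs there, and a floor of 3 counts allows up to 2.41 CPM and a UMI in up to 4.11% of cells, which does not limit how many express it. Against that floor the keratin classes were 2.12-fold higher, and the interval of the log2 ratio began at 0.66. Dusp6 was at 62.5 CPM (49.4 to 78.1, in 31 of 73 cells), 1.24 (0.89 to 1.60) below the keratin classes on the log2 scale, and Spry2 at 36.1 CPM, 1.25 (0.80 to 1.73) below. Fgfr1 stood at 38.5 CPM, 1.49 (1.05 to 1.95) below. Median depth was 12228 UMIs in these cells and 15578.5 and 20160 in basal-keratin and luminal-keratin cells. After thinning to 5000 UMIs, 30.9% of them had a Dusp6 UMI, against the 68.2% and 36.3% of the keratin classes, while by level the luminal-keratin cells, at 113 CPM, lay above them. Whether the Dusp6 UMIs of these cells were free RNA or their own was not tested.

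Part of the Ptprc-positive level sat in cells that also carried keratin. The 15 Ptprc-positive Ctrl cells with at least 10 keratin UMIs held Etv4 at 36.5 CPM, Fgfr1 at 64.4 CPM and the 6 targets at 226 CPM, against 2.97, 16.4 and 65.4 CPM in the other 58. With these cells left out, a choice made after seeing the data, the sum of the targets lay 2.21 (1.78 to 2.68) below the keratin classes on the log2 scale, against 1.12 (0.89 to 1.36) with them. Fgfr2 had 3 UMIs in each set. Of 8 genes with enough UMIs, 6 were called higher in the keratin classes of Ctrl, against 21.6% of all genes tested, and 0 lower, against 9.14%. Fgfr3, among the 6, had 21 UMIs in the keratin classes and 0 in Ptprc-positive cells. It had enough UMIs only through the keratin classes, so it could not have been called lower. It was called in 4 of 7 alternatives. Its bound against the floor fell to 0.195, no call, without the Ptprc-positive cells of at least 10 keratin UMIs. In Fgfr2 KO 4 of 6 were called higher and 1 lower, against 18.7% and 10.7%, and 29.4% of all genes tested were called in either direction. Etv4, among the 4, was at 1.46 (-0.59 to 4.61) from 19 and 2 UMIs and was called in 4 of 10 alternatives. Both of its Ptprc-positive UMIs lay in 1 cell of 83994 UMIs.

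The gene called lower was Fgfr2, and it rested on 1 cell. All 21 Fgfr2 UMIs of Ptprc-positive Fgfr2 KO cells lay in a single cell of 83994 UMIs, with a single UMI for Ptprc but 607 for Krt8 plus Krt18, which also held 10 of the 11 Fgfr1 UMIs. The other 22 cells had 0 Fgfr2 UMIs, which allows up to 16.0 CPM, and 74.7 CPM of the targets. With that cell the log2 ratio of keratin classes over Ptprc-positive cells was -1.09 (-1.92 to -0.23). Without it the log2 ratio against the floor of 3 UMIs was 1.18, with an interval from 0.80.

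Between libraries, most of these genes had intervals that held 0 in basal-keratin cells. The class was not made up alike, since 32 of 68 cells in Ctrl and 3 of 22 in Fgfr2 KO held at least 20% of their keratin UMIs from the other pair. Fgfr1 was at 125 CPM (89.5 to 170.5) in Fgfr2 KO and 94.96 CPM in Ctrl, a log2 ratio of 0.40 (-0.15 to 0.92), and Fgfr2 at 21.9 and 32.4 CPM, -0.57 (-1.97 to 0.60). Dusp6 gave -0.17 (-0.59 to 0.23), and -0.59 (-1.08 to -0.13) with the cells of mixed keratins left out. Spry2 gave -0.48 (-1.11 to 0.11). Etv5 was the exception, with 4 UMIs in 3 of 22 Fgfr2 KO cells, 12.5 CPM (3.41 to 32.1), against the 37.1 CPM of Ctrl, -1.57 (-3.50 to -0.12). The Ctrl side of that ratio rests on the few cells named above. The interval reached 0.10 with cells under 10 keratin UMIs left out and 0.05 without mixed-keratin cells. Thinning left 0 against 15 UMIs, which ends the call. With the 0 set to a floor of 3 counts the thinned ratio was -0.53, which is no limit on it. The 6 targets summed to 329 CPM (269 to 398) in Fgfr2 KO and 425 CPM in Ctrl, -0.37 (-0.69 to -0.07). With cells under 10 keratin UMIs left out it was -0.22 (-0.543 to 0.089), an interval that held 0, as it did with no filter on Ptprc. Without mixed-keratin cells it was -0.62 (-0.979 to -0.268). After thinning to 5000 UMIs the sum differed more, at -1.17 (-1.88 to -0.53) from 22 and 172 UMIs, and so did Spry2, at -1.85 (-3.78 to -0.40) from 4 and 50 UMIs.

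Of 7 genes with enough UMIs in basal-keratin cells, 0 were called higher in Fgfr2 KO and 1 lower (Etv5), against 4.37% and 11.2% of all genes tested. Of the 7, 6 had a log2 ratio below 0, with a median of -0.48 beside -0.12 over all genes. In luminal-keratin cells, a class set by keratins that held 6 cells with at least 10 GFP UMIs in Fgfr2 KO, 0 of 7 were called, against 4.07% higher and 8.58% lower, with a median of -0.15 beside -0.06. There Fgfr1 was at -0.04 (-0.44 to 0.34), Fgfr2 at 0.13 (-0.54 to 0.74, and 0.86 with no filter on Ptprc, which places the cell of 83994 UMIs among them), Dusp6 at -0.15 (-0.56 to 0.25) and the sum at -0.20 (-0.48 to 0.07). In basal-keratin cells the fibroblast list was at 1136 CPM in the Ctrl library and at 37.57 CPM in the other, and its part in these differences was not tested. With 1 library each, genotype and library cannot be told apart.

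Cells with at least 10 GFP UMIs, which both the virus and the recombined reporter can give, were few. Fgfr2 KO had 8 of them, 2 basal-keratin and 6 luminal-keratin, with 7 Fgfr2 UMIs in 6 cells, 30.8 CPM (12.4 to 63.5), against 38.1 CPM in the other 45 keratin-class cells. In the same 8 cells Fgfr1 was at 101.3 CPM and Dusp6 at 123 CPM, each with a UMI in 8 of 8, and the targets summed to 238 CPM, against 259 CPM in the others. Fgfr2 UMIs were thus counted in most GFP-high cells of the library in which Cre deletes the gene, under the limits on the deleted exons given above. Ctrl had 5 such cells with 4 Fgfr2 UMIs in 2 of them.

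Within cells brought to 1 depth, r among the genes was low. Pearson's r of log values was taken over keratin-class cells thinned to 5000 UMIs, 179 in Ctrl and 46 in Fgfr2 KO, as a description, since the cells of a set share their library. Over the 36 pairs in Ctrl it ran from -0.10 to 0.27 with a median of 0.01. Pairs of targets had a median of 0.03 and receptors with targets a median near 0, and the highest r of Fgfr2 with a target was 0.06, with Spry1. Fgfr2 and Dusp6, seen together in 14 cells, had an r of -0.001. At this depth Fgfr2 had a UMI in 8 of 66 basal-keratin and 19 of 113 luminal-keratin cells of Ctrl, and Spry1 in 2 and 7. With so few cells holding a UMI, a low r does not show that genes are not co-expressed.

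The pair with the highest r in Ctrl was Spry2 and Dusp6, at 0.27, with both in 30 cells where 23.5 would follow from the separate shares. It was 0.39 over 66 basal-keratin cells and 0.09 over luminal-keratin cells, and 0.06 in Fgfr2 KO, where both were in 4 cells and 4.54 would follow. Etv5 and Spry2 stood at 0.26 in Ctrl, with both in 10 cells against 5.75, and at -0.14 in Fgfr2 KO. At full depth, where the depth of a cell also moves its counts, Spry2 and Dusp6 had an r of 0.29 in Ctrl and 0.47 in Fgfr2 KO, with both in 22 of 53 cells where 17.5 would follow. Split by Spry2, luminal-keratin cells of Ctrl with a Spry2 UMI held Dusp6 at 137 CPM and those without at 82.6 CPM, a log2 ratio of 0.73 (0.38 to 1.08). The basal-keratin cells of Fgfr2 KO gave 1.59 (0.71 to 2.57), from 10 cells with and 12 without. The intervals held 0 in basal-keratin cells of Ctrl, at 0.17 (-0.197 to 0.542), and in luminal-keratin cells of Fgfr2 KO, at 0.63 (-0.155 to 1.44). Cells with Spry2 were the deeper ones, with a median of 23477.5 against 18343 UMIs in luminal-keratin cells of Ctrl, and a split by Fgfr1 there gave a like value for Dusp6, 0.78 (0.195 to 1.41). Whether depth had a part in these differences was not tested. At full depth, 3 or more of the 6 targets were seen in 28 of 68 basal-keratin, 53 of 117 luminal-keratin and 8 of 73 Ptprc-positive cells of Ctrl. Thinned to 5000 UMIs the first counts became 13 of 66 and 4 of 113.

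**Figure D5:**
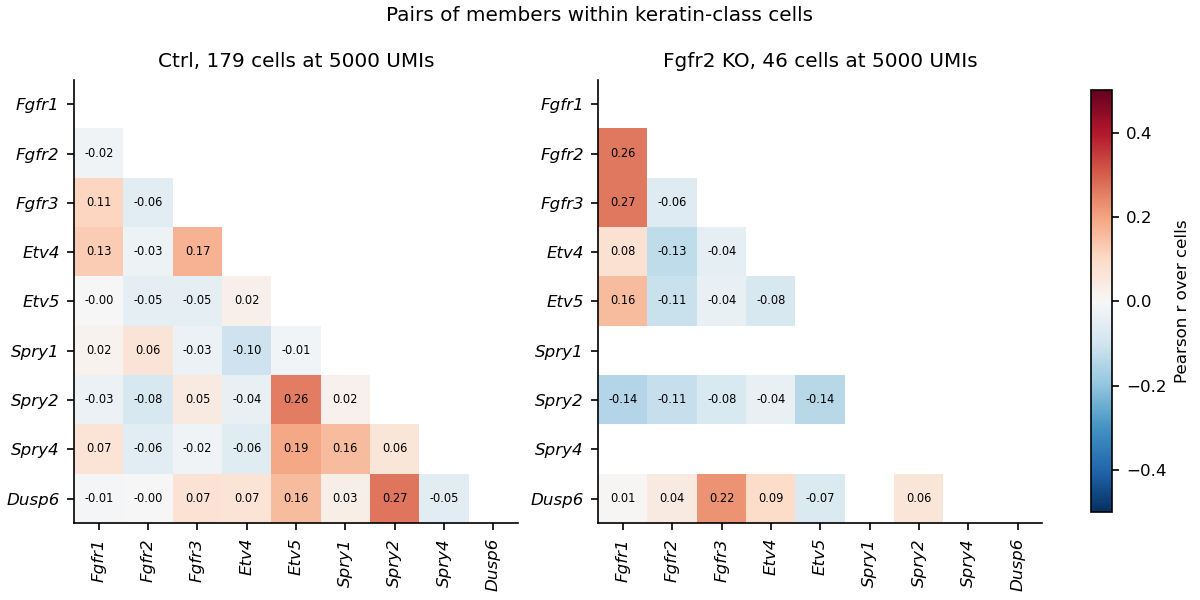
Pearson's r of log values for each pair of genes (colour and printed value) over keratin-class cells thinned to 5000 UMIs, for 179 Ctrl cells (left) and 46 Fgfr2 KO cells (right); blank squares have no value because a gene had no UMI left. No pair exceeds 0.27 in either library, and Spry2 with Dusp6 is the highest pair in Ctrl.

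The genes most like Fgfr2 over 185 keratin-class Ctrl cells, among 4680 genes with at least 100 UMIs in at least 20 cells, were Tspan13 (r 0.43, and 0.67 over 53 Fgfr2 KO cells), Cmtm8 (0.43 and 0.55), Cd164 (0.38 and 0.56), Mum1l1 (0.38 and 0.50) and Tmem56 (0.38 and 0.56). The median r of all those genes with Fgfr2 was 0.01 in Ctrl and 0.11 in Fgfr2 KO. Among the next were Prlr, the prolactin receptor used as a hormone-sensing marker (0.37 and 0.59), and Wnt4, a ligand made by hormone-sensing cells (0.36 and 0.63), both picked out after their values were seen. The sum of the 6 targets had Nfix (0.50 and 0.43), Mia (0.50 and 0.37), Nedd4 (0.47 and 0.41), Emid1 (0.46 and 0.45) and Lgals7 (0.43 and 0.45) nearest to it, none of them shared with Fgfr2, beside medians of 0.01 and 0.10 over all those genes.

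Other genes of the pathway were read from a list of 41 ligands, coreceptors, adaptors, inhibitors and ERK targets. Ligands were nearly absent, and none of 9 reached 20 UMIs in any comparison. Fgf7, made by stroma in the normal gland, had 8 UMIs in 1 basal-keratin cell and 5 UMIs in 3 luminal-keratin cells of Ctrl. Whether those cells were epithelial was not tested. Fgfr4 had 0 UMIs in the keratin classes and Ptprc-positive cells of Ctrl. Per the paper, the transplanted cells were purified by sorting before sequencing, so scarce ligands here do not describe the stroma of the graft.

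Between the keratin classes of Ctrl, 3 of 24 list genes with enough UMIs were called higher in basal-keratin cells and 2 lower, against 5.07% and 9.64% of all genes tested. The higher ones were Spred1, a Sprouty-related inhibitor of Ras signalling, at 71.0 against 26.3 CPM (log2 1.44, 0.98 to 1.90), the decoy receptor Fgfrl1 at 24.7 against 8.16 CPM (1.60, 0.78 to 2.44) and Flrt3, a membrane protein that binds FGF receptors, at 24.7 against 8.52 CPM (1.54, 0.73 to 2.36). Sos1 (-1.15) and Spred3 (-2.10) were the lower ones. Spred1 had the same order in Fgfr2 KO, at 93.9 against 22.7 CPM (2.05, 1.09 to 3.08), where 3 of 15 were called higher and 2 lower, against 7.23% and 14.2%. The list's medians were -0.38 in Ctrl and 0.21 in Fgfr2 KO, beside -0.12 and -0.16 over all genes.

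Between hormone-sensing and progenitor marker cells of Ctrl, 5 of 23 were called higher and 2 lower, against 8.4% and 8.76% of all genes tested. Among the higher were the heparan sulphate carriers Sdc1, at 359 against 165 CPM (1.12), and Sdc4, at 1455 against 625 CPM (1.22), which act as coreceptors for FGF, and Spred2, at 36.1 against 12.6 CPM (1.53). In Fgfr2 KO 1 of 10 was called higher and 1 lower, against 10.3% and 7.7%. The higher one was Sdc1 again (1.55), Sdc4 was at 0.24 (-0.093 to 0.568), and Spred2 had too few UMIs to be called.

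Between libraries, the ERK phosphatase gene Dusp4 was called lower in Fgfr2 KO in both classes, at 34.4 against 139 CPM in basal-keratin cells (-2.01, -3.04 to -1.14) and 60.0 against 163 CPM in luminal-keratin cells (-1.44, -1.97 to -0.96). Ptprc-positive cells had it at 51.6 against 129 CPM, so the lower level was not particular to the keratin classes. Ccnd1, a cyclin raised by growth factors, was at 84.5 against 203 CPM in basal-keratin cells (-1.26, -1.89 to -0.69). It was also lower in Ptprc-positive cells, at 29.5 against 108 CPM from 8 and 135 UMIs, but not in luminal-keratin cells, at 378 against 310 CPM. In all, 1 of 20 list genes was called higher and 4 lower in basal-keratin cells, against 4.37% and 11.2% of all genes tested. In luminal-keratin cells 1 of 24 was called higher and 5 lower, against 4.07% and 8.58%. The list's medians were -0.14 and -0.18, beside -0.12 and -0.06 over all genes. The gene called higher in basal-keratin cells was Dusp7, another ERK phosphatase gene, at 28.2 against 13.9 CPM from 9 and 18 UMIs, 1.02 (-0.318 to 2.25).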

How the data were processed

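The authors deposited 1 table of raw UMI counts per gene and cell for both 10x Genomics libraries. Per the study's methods they made it with Cell Ranger, whose version the submitters' processing notes give as 2.1.1 with mm10. The methods themselves name a different version. It held 28000 rows, of which 27998 were genes and 2 were reporters. Columns were assigned to libraries by prefix, none was without a library, and no barcode occurred in both. No cells were left out, and doublets were kept (Scrublet called 3 in Ctrl and 3 in Fgfr2 KO).

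UMIs were summed over the cells of a class and scaled by the total UMIs of that class (CPM), which weights deep cells more. CPM have exact Poisson, ratios exact conditional binomial and shares exact Clopper-Pearson 95% intervals. A side with 0 UMIs was set to a floor of 3 counts. Thinning to 5000 UMIs used seed 1 and left out shallower cells. Correlations used log1p of UMIs per 10000. Genes named beyond the members were the 5 nearest by r in Ctrl and list genes past 2-fold with at least 20 UMIs. Prlr, Wnt4, Fgf7 and Fgfr4 fall outside this rule and were named after their values were seen. The members, the lists and the minimum of 10 GFP UMIs were chosen with earlier results of these data known. The intervals were tried on counts simulated without spread between cells, as counting intervals assume. That trial cannot show how they fare where few cells hold the UMIs. Python 3.11.15, pandas 2.3.3, scipy 1.17.1 and scanpy 1.11.5 were used.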

Additional observations from a re-analysis of the deposited data

Results flagged for a closer look

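Of 37 pairs of ratios compared between libraries or classes, 7 had opposite signs, which needs no more than 2 values near 0. None of these differences was tested.

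Fgfr1 in basal-keratin over luminal-keratin cells had a log2 ratio of -0.26 in Ctrl and 0.18 in Fgfr2 KO. Its ratio of Fgfr2 KO over Ctrl was 0.40 in basal-keratin and -0.043 in luminal-keratin cells. For Fgfr2 the latter ratios were -0.57 and 0.13, and for Etv5 -1.57 and 0.22. Spry2 in hormone-sensing over progenitor marker cells was at -1.04 in Ctrl and 0.36 in Fgfr2 KO. Dusp6 in luminal-keratin cells with a basal keratin share below 10% over those at 10 to 50% was at -0.26 in Ctrl and 0.25 in Fgfr2 KO. Fgfr2 in the keratin classes over Ptprc-positive cells was at 2.97 in Ctrl and -1.09 in Fgfr2 KO, the latter through the 1 cell of 83994 UMIs.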

How the results depend on the processing

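All values here are log2 ratios. The 8 main ratios were recomputed under alternatives, which gave 81 values, of which 73 stayed within the counting interval of the ratio, 8 moved outside it and 0 turned the sign of a ratio past 2-fold. With mixed-keratin cells left out, Fgfr1 in basal-keratin over luminal-keratin cells of Ctrl became -0.58 and the sum of the targets 0.98, and with cells thinned to 5000 UMIs that sum became 1.002. Thinning also took the sum in Fgfr2 KO over Ctrl basal-keratin cells to -1.17. Fgfr2 in Fgfr2 KO over Ctrl luminal-keratin cells became 0.86 with no filter on Ptprc and 0.88 with Ptprc-positive cells set at 2 or more UMIs. Fgfr2 in hormone-sensing over progenitor marker cells of Ctrl became 1.22 thinned and 1.16 without cells of a basal keratin share of 10% or more. For the Fgfr2 values of 0.86 and 0.88 the cell of 83994 UMIs enters the class with its 21 Fgfr2 UMIs, and for the others the cause was not tested.

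Of 851 values for single genes, 783 stayed within the interval, 62 moved outside it and 6 turned the sign of a ratio past 2-fold. Over main and single ratios together, thinning moved 29 of 75. The Fgfr2 ratio of keratin classes over Ptprc-positive cells in Fgfr2 KO (-1.09) became 1.28 as a mean of the cells' own CPM. The other settings that turned its sign left 0 UMIs in Ptprc-positive cells and give lower bounds, of 1.21 at 2 or more Ptprc UMIs, 0.94 without the cell with the most UMIs of the gene on each side, and 1.18 without the deepest Ptprc-positive cell or without those with at least 10 keratin UMIs. Under the other 6 of 11 alternatives its sign was kept. Etv5 in hormone-sensing over progenitor marker cells became 0.32 when thinned, from 5 and 4 UMIs. Its ratio of basal-keratin over luminal-keratin cells of Ctrl ranged from 0.83 to 1.51, and so fell under 2-fold in some. Leaving out doublets and several alternatives for the luminal split and the Ptprc-positive cells were among these settings, the latter added after seeing the data. No paired analysis was possible because each group had 1 library, and no replicate could be left out for the same reason. Depth limits Fgfr3, Spry4 and every Fgfr2 KO value under 20 UMIs.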
